A study of Mus musculus with 12 samples.

Results

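The 10 genes described here encode the Rag GTPases that recruit the growth kinase complex mTORC1 to lysosomes (Rraga, Rragc, Rragd), the folliculin complex that acts on them (Flcn, Fnip1, Fnip2), the MiT/TFE transcription factors downstream (Tfeb, Tfe3, Mitf) and Gpnmb, a membrane glycoprotein gene known as a target of those factors. They were picked by name from a table of 27179 genes, and all 10 were found by their Entrez IDs. Their levels in all 4 groups were known when they were picked, so the differences between groups in these genes are given as a description with no test. Of the 10, 9 had a normalized count of at least 10 in at least 3 libraries and entered the fit across 13939 genes, and Gpnmb did not.

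The cells were mIMCD3, mouse kidney cells of the inner medullary collecting duct, in 4 groups of 3 poly(A)-selected RNA-seq libraries. The groups were the Actr3 knockout line KO-1 given 0.5 µM ciliobrevin D, an inhibitor of the motor cytoplasmic dynein (CB-treated Actr3 KO), a line edited in both Actr3 and Ift88 (dKO), the same KO-1 line without the drug (Actr3 KO), and a wild type control line (control). All groups grew for 48 h to confluence with 10% fetal calf serum, and a further 24 h without serum followed, during which ciliobrevin D or its solvent was present. Actr3 encodes a subunit of the Arp2/3 complex, which nucleates branched actin, and Ift88 a protein of the trains that carry material along primary cilia. The edited genotypes were 1 line each, so line and genotype cannot be told apart; the control titles name 1 line, but the name of 1 control column could be that of another. No label says that a group's 3 libraries are separate cultures, so the p-values reflect only the spread among these libraries, which may be technical.

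Reads counted in genes numbered between 28902562 and 38077987 per library. Actr3 averaged 1573 ± 180 normalized counts in CB-treated Actr3 KO, 871 ± 38.6 in dKO, 1218 ± 111 in Actr3 KO and 8336 ± 293 in control (SD, n = 3 in each group, here and below). Ift88 averaged 604 ± 29.8 in dKO and 617 ± 34.2 in Actr3 KO, so its total transcript level does not check the dKO label. Of the kidney epithelial and collecting duct genes examined, Epcam and Pax8 were above 5737 normalized counts in every library. Others of that list were low. Group means were at most 70.7 normalized counts for Scnn1a, 13.2 for Aqp3 and 17.3 for Avpr2. Aqp2, which marks the water-reabsorbing principal cell, had at most 2 reads in any group.

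In mammalian cells fed with amino acids, RagA or RagB pairs with RagC or RagD on the lysosome surface and brings mTORC1 there. Folliculin, bound to FNIP1 or FNIP2, stimulates GTP hydrolysis by RagC and RagD, the state in which mTORC1 phosphorylates TFEB and TFE3 and keeps them in the cytoplasm. When this fails, the factors enter the nucleus and switch on genes of lysosomes and autophagy, among them, in other cells, RRAGD, FLCN and FNIP2 themselves. In the kidney, loss of folliculin causes cysts and tumours, and gene fusions of TFE3 or TFEB occur in renal cell carcinoma. Transcript counts say nothing of where a factor sits in the cell or of its phosphorylation.

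MiT/TFE factors bind the palindrome CACGTG, read on both strands, and the members' promoters were searched for it in windows running from 250 bases before to 50 after each annotated start matched to them (RefSeq, GRCm38.p6). Promoters were matched for all 10 genes. Only the windows of Rragc and Fnip1 held it, beside 11.6% of the 10545 tested genes with a matched window. The 150 bases before their starts are printed with those of Rragd, which differed most between Actr3 KO and control and holds no CACGTG there. All 3 lie on the + strand and run 5′ to 3′, with the CACGTG match in capitals.
Rragc, chr4:123917283-123917432: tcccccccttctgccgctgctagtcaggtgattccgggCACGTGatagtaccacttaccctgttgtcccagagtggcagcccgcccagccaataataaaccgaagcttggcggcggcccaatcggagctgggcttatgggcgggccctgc
Fnip1, chr11:54438029-54438178: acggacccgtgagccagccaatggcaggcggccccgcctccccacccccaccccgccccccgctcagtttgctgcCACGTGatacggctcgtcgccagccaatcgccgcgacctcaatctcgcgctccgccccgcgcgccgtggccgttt
Rragd, chr4:32982848-32982997: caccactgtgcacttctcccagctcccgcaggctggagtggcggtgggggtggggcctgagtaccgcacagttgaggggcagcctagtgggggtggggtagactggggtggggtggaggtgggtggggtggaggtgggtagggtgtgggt

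The match starts 112 bases before the start of Rragc and 75 bases before that of Fnip1, and both extend to TCACGTG on one strand. The Fnip1 start used for its window is at 54438179, inside the gene span given below, which opens at 54438107, so the 2 annotated starts differ and the match spans the first base of that span. For Fnip2 the start used, 79567679 on the - strand, also lies inside its gene span, which ends at 79568151. Its window reached only to 79567929, so that end of the gene was not searched. Of 32851 mouse promoter windows of the same length, 7.15% held CACGTG and 3.77% held TCACGTG, and of the 13396 windows of genes tested here, 9.77% and 5.76% did. The 10-base palindrome with GT before and AC after CACGTG, which contains both shorter motifs, was in no member's window and in 0.326% of all windows. A related form, TCATGTG, was also in no member's window and in 3.77% of all. A match is a run of letters and not a shown binding site, and a window without it says nothing about sites elsewhere in the gene.

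Rragd, which encodes RagD, was the member whose level differed most between the groups. It lies at chr4:32982998-33022180 on the + strand (GRCm38). Its normalized counts were 823, 722 and 699 in CB-treated Actr3 KO, 177, 182 and 231 in dKO, 639, 700.03 and 705 in Actr3 KO, and 39.9, 27.97 and 24.9 in control. Every library carrying the Actr3 edit was above every control library, dKO lay between the others without overlap, and CB-treated and untreated Actr3 KO overlapped. The ratio of mean normalized counts was 22.0 for Actr3 KO over control, 6.35 for dKO over control and 0.288 for dKO over Actr3 KO. On the log2(value + 1) scale, which understates changes of low genes, these differences were 4.44, 2.65 and -1.80 (SE 0.14 each). Reads of Rragd summed over the 3 libraries were 1898 in CB-treated Actr3 KO, 622 in dKO, 2055 in Actr3 KO and 105 in control.

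Rragc, which encodes RagC, the alternative partner, was highest with the drug. It lies at chr4:123917433-123936997 on the + strand, and 264 bases of its exons overlap 4930535I16Rik on the opposite strand. The strand setting of the counting is not given in the sources used, so reads from that overlap cannot be assigned with certainty. Its normalized counts were 4141, 4593 and 5177 in CB-treated Actr3 KO, 2978, 2993 and 2906 in dKO, 2549, 2554 and 2726 in Actr3 KO, and 2392, 2511 and 2584 in control. The treated libraries stood above all others and dKO above the remaining ones, while Actr3 KO and control overlapped. CB-treated over untreated Actr3 KO gave a log2 difference of 0.82 ± 0.06 (SE), dKO over Actr3 KO 0.18 ± 0.06 and Actr3 KO over control 0.06 ± 0.06.

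Rraga encodes RagA, which pairs with either of them, and its order of groups differed from that of both. It is an intronless gene at chr4:86575673-86577285 on the + strand. Normalized counts ranged over 1518 to 1731 in CB-treated Actr3 KO, 2023 to 2127 in dKO, 1379 to 1482 in Actr3 KO and 2020 to 2076 in control. Control and dKO overlapped and lay above both Actr3 KO groups, and the CB-treated libraries lay above the untreated ones. The log2 difference was -0.54 ± 0.06 (SE) for Actr3 KO over control and 0.56 ± 0.06 for dKO over Actr3 KO. Rragb, the close paralog of Rraga and not among the 10, had 0 reads in CB-treated Actr3 KO, dKO and Actr3 KO and 3 reads in the control libraries together, at or below the 3 reads taken as the floor.

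Compared per kb of exon, which allows levels of different genes to be set side by side, Rragd stayed the lesser of the RagC and RagD transcripts in every group. Its level per kb averaged 145 in CB-treated Actr3 KO, 38.0 in dKO, 132 in Actr3 KO and 5.98 in control. Rragc averaged 1388 per kb in CB-treated Actr3 KO, 886 in dKO, 781 in Actr3 KO and 747 in control. The share of Rragd in their summed level was 9.54 ± 1.70% in CB-treated Actr3 KO, 4.12 ± 0.660% in dKO, 14.4 ± 0.567% in Actr3 KO and 0.800 ± 0.235% in control. These shares did not overlap between any of the 4 groups, and CB-treated cells, with Rragd levels overlapping those of untreated Actr3 KO and higher Rragc, had the smaller Rragd share of these 2 groups. Isoforms differ in length, so a level per kb of all annotated exons is approximate.

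**Figure D1:**
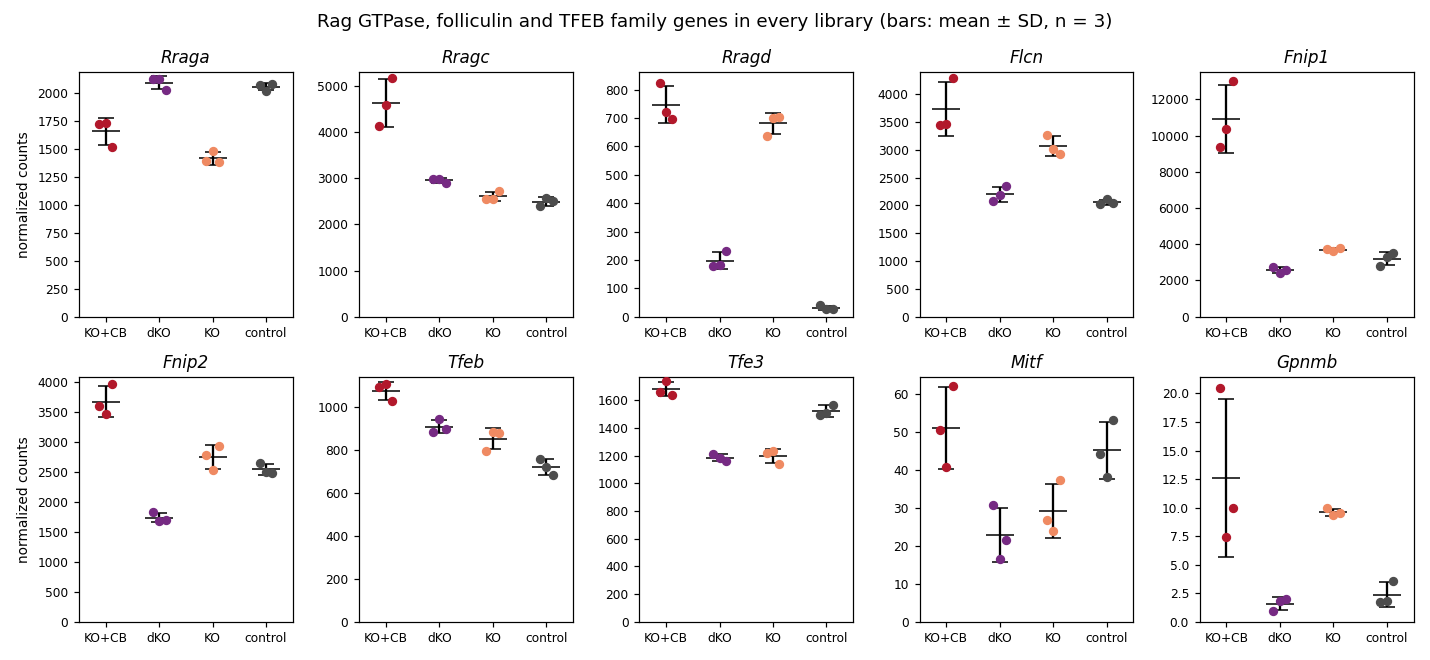
Normalized counts of the 10 genes (y axes, each starting at 0) in the 12 libraries, with KO+CB for CB-treated Actr3 KO and KO for Actr3 KO; points are libraries and bars the mean ± SD of 3. Rragd is low in control alone and intermediate in dKO. All genes but Rraga have their highest mean in the CB-treated libraries, Fnip1 and Rragc among them, though Rragd, Mitf and Gpnmb overlap the next group there.

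Flcn, which encodes folliculin itself, was higher in both Actr3 KO groups than in dKO and control. The gene lies at chr11:59791408-59810039 on the - strand. Its normalized counts were 3450, 3463 and 4289 in CB-treated Actr3 KO, 2072, 2194 and 2342 in dKO, 3260, 3014 and 2919 in Actr3 KO, and 2030, 2036 and 2112 in control. Control and dKO overlapped, and every Actr3 KO library, treated or not, lay above them. The log2 difference was 0.57 ± 0.07 (SE) for Actr3 KO over control and -0.48 ± 0.07 for dKO over Actr3 KO. With the drug it was 0.28 ± 0.07 over untreated Actr3 KO, but 0.18 without the third treated library and 0.11 after quantile normalization.

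Fnip1, whose product bridges folliculin to AMPK and is needed for its GTPase-activating work, showed the largest difference with the drug among the 9 in the fit. It lies at chr11:54438107-54518241 on the + strand. Its normalized counts were 9383, 10382 and 12986 in CB-treated Actr3 KO, 2748, 2405 and 2562 in dKO, 3707, 3594 and 3778 in Actr3 KO, and 2796, 3487 and 3299 in control. No groups overlapped, with dKO lowest and the treated cells far above the rest. The ratio of means was 2.96 for CB-treated over untreated Actr3 KO, a log2 difference of 1.55 ± 0.09 (SE). Between dKO and Actr3 KO the log2 difference was -0.52 ± 0.09, and between Actr3 KO and control it was 0.22 ± 0.09, or 0.12 without the first control library.

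Fnip2, the paralog that takes the same place in the complex, was lowest in dKO. It lies at chr3:79455971-79568151 on the - strand. The libraries held 3464 to 3971 normalized counts in CB-treated Actr3 KO, 1689 to 1825 in dKO, 2539 to 2936 in Actr3 KO and 2482 to 2658 in control. The dKO libraries were below all others, the treated ones above all others, and Actr3 KO overlapped control. The log2 difference of dKO over Actr3 KO was -0.66 ± 0.06 (SE), and it was -0.27 once the median difference of the genes on its chromosome was taken out. That median was -0.39 for chromosome 3 in dKO over Actr3 KO, and what moved the whole chromosome was not tested.

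Per kb of exon, Fnip1 was above Fnip2 in every group. The share of Fnip1 in their summed level was 77.5 ± 2.00% in CB-treated Actr3 KO, 63.4 ± 0.735% in dKO, 61.2 ± 1.14% in Actr3 KO and 59.5 ± 3.69% in control. Flcn had 864 normalized counts per kb in CB-treated Actr3 KO, 509.6 in dKO, 709 in Actr3 KO and 476 in control. Fnip1 had 1533 per kb in CB-treated Actr3 KO, 361 in dKO, 519 in Actr3 KO and 449 in control, so its mean per kb exceeded that of Flcn in the treated cells alone. Before division by exon length, the mean normalized count of Fnip1 was above that of Flcn in every group, so this order depends on the lengths used. Fnip2 had 439.6 per kb in CB-treated Actr3 KO, 208 in dKO, 329 in Actr3 KO and 304 in control.

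**Figure D2:**
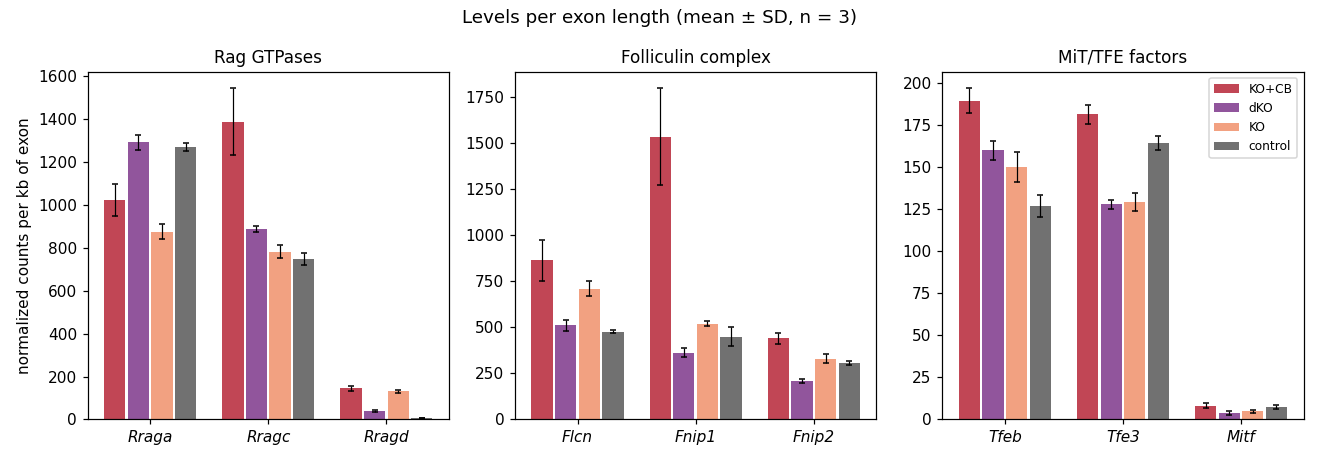
Normalized counts per kb of annotated exon (y axes, starting at 0) for the Rag GTPases, the folliculin complex and the MiT/TFE factors, as mean ± SD of 3 libraries; the y scale differs between panels. On this scale, Rragd is the lowest Rag in every group, Fnip1 exceeds Flcn only with the drug, and Mitf is far below Tfeb and Tfe3. Without division by exon length, Fnip1 exceeds Flcn in every group.

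Among the transcription factors, Tfeb was highest with the drug and lowest in control. The gene, at chr17:47737037-47792416 on the + strand, encodes the factor best known as a master regulator of lysosomal genes. Normalized counts ranged over 1026 to 1104 in CB-treated Actr3 KO, 883 to 942 in dKO, 794 to 881 in Actr3 KO and 681 to 758 in control. The ranges did not overlap, although those of dKO and Actr3 KO nearly touched, with a log2 difference of 0.09 ± 0.07 (SE). The log2 difference was 0.34 ± 0.07 (SE) for CB-treated over untreated Actr3 KO and 0.24 ± 0.07 for Actr3 KO over control, the last 0.13 with chromosome medians taken out.

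Tfe3, which shares many targets with Tfeb, followed another order. It lies at chrX:7762530-7775202 on the + strand. The libraries held 1640 to 1738 normalized counts in CB-treated Actr3 KO, 1159 to 1209 in dKO, 1139 to 1231 in Actr3 KO and 1494 to 1569 in control. Both untreated edited lines overlapped each other and lay below control, while the treated libraries lay above control. The log2 difference was -0.35 ± 0.05 (SE) for Actr3 KO over control, or -0.17 with chromosome medians taken out, and 0.49 ± 0.05 for CB-treated over untreated Actr3 KO.

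Mitf, the factor of melanocytes and osteoclasts, was expressed at a low level. It lies at chr6:97807002-98021360 on the + strand, and its normalized counts were 40.74 to 62.2 in CB-treated Actr3 KO, 16.7 to 30.7 in dKO, 23.8 to 37.3 in Actr3 KO and 38.2 to 53.2 in control. CB-treated libraries overlapped control, and dKO overlapped Actr3 KO, with the second pair below the first. The log2 difference of Actr3 KO over control was -0.62 ± 0.25 (SE), but -0.22 once the chromosome 6 median of -0.42 was taken out. Mitf made up 2.19 ± 0.519% of the summed level per kb of the 3 factors in CB-treated Actr3 KO, 1.27 ± 0.401% in dKO, 1.67 ± 0.412% in Actr3 KO and 2.44 ± 0.404% in control. Tfeb made up 49.96 ± 0.751% in CB-treated Actr3 KO, 54.9 ± 1.27% in dKO, 52.9 ± 1.92% in Actr3 KO and 42.5 ± 2.01% in control, where Tfe3 was the more abundant of the pair. Before division by exon length, mean normalized counts of Tfe3 exceeded those of Tfeb in every group. They were 1681 against 1074 in CB-treated Actr3 KO and 1185 against 907 in dKO. In Actr3 KO they were 1196 against 852, and in control 1523 against 720. Outside control, which of the pair was higher thus depended on the exon lengths used, which are approximate.

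Gpnmb, at chr6:49036518-49058182 on the + strand, had few reads. Its read counts were 17, 6 and 9 in CB-treated Actr3 KO, 1, 2 and 2 in dKO, 10, 9 and 10 in Actr3 KO, and 2, 4 and 2 in control. The treated and untreated Actr3 KO libraries overlapped and all lay above those of dKO and control, which overlapped in turn. The ratio of summed reads, scaled for depth, was 4.07 for Actr3 KO over control with an exact 95% interval of 1.81 to 10.3. For dKO over Actr3 KO it was 0.164 (0.0495 to 0.428) and for CB-treated over untreated Actr3 KO 1.31 (0.768 to 2.24). These intervals cover counting error only.

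Taking the members comparison by comparison, 5 of the 10 were higher and 3 lower in Actr3 KO than in control without overlap of libraries, namely Rragd, Flcn, Fnip1, Tfeb and Gpnmb higher and Rraga, Tfe3 and Mitf lower. Among the 9 members in the fit, which leave out Gpnmb, 4 were higher and 3 lower. Of all genes tested, 73.3% had groups that did not overlap in this comparison, 36.0% higher and 37.2% lower, and nothing is read from the members' count, since these comparisons were in view when the genes were picked. In dKO against Actr3 KO, 3 were higher (Rraga, Rragc and Tfeb) and 5 lower (Rragd, Flcn, Fnip1, Fnip2 and Gpnmb). Without Gpnmb, 3 were higher and 4 lower of the 9 in the fit, beside 71.2% of all tested genes without overlap, 35.5% higher and 35.7% lower. In CB-treated against untreated Actr3 KO, 8 were higher and 0 lower, beside 68.1% of tested genes without overlap, 34.3% higher and 33.9% lower, and Rragd and Gpnmb overlapped. After quantile normalization, 7 members did not overlap in this comparison. The log2 differences then came to 0.64 in place of 0.82 for Rragc and 1.37 in place of 1.55 for Fnip1. They came to 0.25 in place of 0.42 for Fnip2 and 0.11 in place of 0.28 for Flcn. The median log2 difference of the 9 members in the fit was 0.11, -0.36 and 0.42 in these 3 comparisons, against medians of 0.00, -0.01 and -0.02 over all genes tested.

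Against control, dKO had 3 members higher (Rragc, Rragd and Tfeb) and 4 lower (Fnip1, Fnip2, Tfe3 and Mitf), beside 72.0% of tested genes without overlap, 34.9% higher and 37.1% lower. With chromosome medians removed, 5 members did not overlap in place of 7, and the log2 differences of dKO over control came to -0.10 in place of -0.55 for Fnip2, -0.60 in place of -0.98 for Mitf, -0.23 in place of -0.36 for Tfe3 and 0.20 in place of 0.33 for Tfeb. Flcn, Rraga and Gpnmb overlapped control in dKO, with log2 differences of 0.10 ± 0.07 (SE) for Flcn and 0.02 ± 0.06 for Rraga. CB-treated Actr3 KO had 8 members higher than control and Rraga lower, and only Mitf overlapped. Of the 9 members in the fit, 7 were higher and 1 lower, beside 67.8% of tested genes without overlap, 34.6% higher and 33.2% lower. With chromosome medians removed, none of the 10 members overlapped in CB-treated Actr3 KO against control. The log2 differences then came to 0.62 in place of 0.17 for Mitf and 0.30 in place of 0.14 for Tfe3. These comparisons share libraries with the 3 above and are not independent of them.

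**Figure D3:**
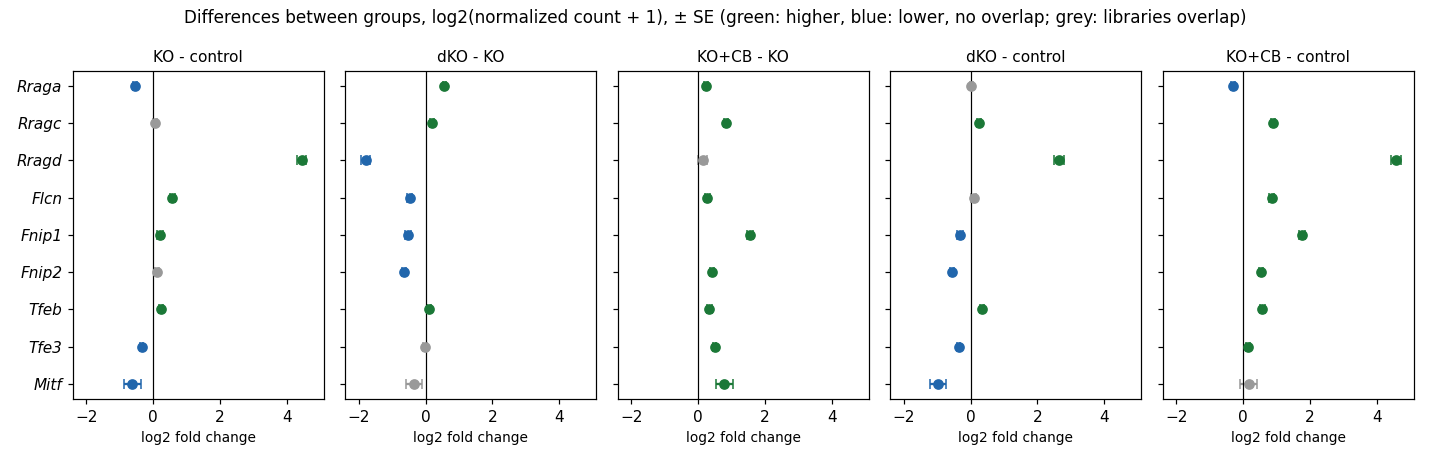
Difference in log2(normalized count + 1) between the groups named above each panel (x axis, ± SE from the fit of 12 libraries) for the 9 members in the fit; green marks groups that do not overlap and are higher in the first named, blue lower, grey overlapping. Rragd stands at 4.44 in Actr3 KO over control and at -1.80 in dKO over Actr3 KO, and with the drug Fnip1 has the largest difference at 1.55.

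For each member in the fit, the 3 other genes with the most similar profile over the 12 libraries were looked up among 10927 genes with a mean of at least 100. The closest to Rragd were Obsl1 (Pearson r = 0.992), Nlrc5 (0.991) and Fam214a (0.988). Those of Fnip1 were Ammecr1l (0.994), Atxn7 (0.993) and Epc1 (0.992), and those of Fnip2 were Trak2 (0.998), Ash1l (0.994) and Son (0.994). Rragc was closest to Nr1d2 (0.992), Rela (0.987) and Rhoq (0.985), and Flcn to Mir3064 (0.989), Rbm5 (0.983) and Mapk8ip3 (0.982). For Rraga they were Pclaf, Paics and Denr (0.987 to 0.988), for Tfe3 Csnk1e, Rnf2 and Cebpb (0.983 to 0.991), for Tfeb Anxa8, Snx18 and Arap1 (0.9697 to 0.982) and for Mitf Lcor, Samd8 and Wdr43 (0.935 to 0.949). No member's closest 3 included a gene of the pathway lists below. These coefficients describe profiles over 4 groups that share the same libraries and depth, and carry no test.

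The genes around this axis were then counted in the fit across all 13939 genes (limma, Benjamini-Hochberg adjusted p under 0.05). In Actr3 KO against control, 69.8% of all genes tested passed, 34.4% higher and 35.4% lower, so shares of called genes in a list are to be read against that. Of the Ragulator scaffold and its amino acid transporter partner, 1 rose and 3 fell of 6 tested, with a median log2 difference of -0.15. Lamtor2, a Ragulator subunit, averaged 890 ± 75.2 normalized counts in Actr3 KO and 1544 ± 51.9 in control (limma adjusted p = 5.55e-10). Slc38a9, the lysosomal arginine sensor, averaged 585 ± 30.2 in Actr3 KO and 369 ± 34.7 in control (limma adjusted p = 4.81e-07). Lamtor5 also fell, by 0.49 on the log2 scale.

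Upstream of the Rags, 8 of 17 genes of the GATOR and KICSTOR complexes and the amino acid sensors rose in Actr3 KO and 6 fell, with a median of -0.03. Bmt2, which encodes the S-adenosylmethionine sensor SAMTOR, averaged 396 ± 28.9 normalized counts in Actr3 KO and 1190 ± 59.6 in control (log2 -1.59, limma adjusted p = 2.34e-13). Sec13, a GATOR2 subunit on the same chromosome 6 as Bmt2 and Mitf, fell by 0.86 on the log2 scale, or by 0.46 with chromosome medians removed. That chromosome's median of -0.42 was not taken out of the Bmt2 value above. Of mTORC1, the TSC complex, Rheb and direct substrates, 9 of 15 rose and 5 fell, with a median of 0.35. Deptor, an inhibitor bound to mTOR, averaged 535 ± 51.7 normalized counts in Actr3 KO and 162 ± 22.9 in control (log2 1.72, limma adjusted p = 6.97e-11). Rheb, the GTPase that activates mTORC1, averaged 2411 ± 172 in Actr3 KO and 4469 ± 253 in control (log2 -0.89), and Eif4ebp1, a translation repressor that mTORC1 switches off, fell by 0.77 on the log2 scale. Rheb lies on chromosome 5, whose genes had a median difference of -0.24 in this comparison.

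Of the kinases, phosphatase subunits and transport genes that act on TFEB or TFE3, 2 of 14 rose in Actr3 KO and 7 fell, with a median of -0.12. Mcoln1, the lysosomal calcium channel upstream of calcineurin, averaged 3715 ± 180 normalized counts in Actr3 KO and 2425 ± 110 in control (log2 0.61, limma adjusted p = 4.51e-09). Ppp3r1, the regulatory subunit of calcineurin, fell by 0.51 on the log2 scale, and Prkaca, a catalytic subunit of protein kinase A, by 0.61.

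Among 30 lysosomal genes described as TFEB targets, 17 rose and 5 fell in Actr3 KO, with a median log2 difference of 0.23. Gaa, the lysosomal enzyme that breaks down glycogen, averaged 17317 ± 1238 normalized counts in Actr3 KO and 6711 ± 290 in control (log2 1.37, limma adjusted p = 8.3e-14). Hexa, a subunit of beta-hexosaminidase, averaged 3690 ± 25.2 in Actr3 KO and 1250 ± 170 in control (log2 1.57), and Sgsh, a heparan sulfate sulfatase, rose by 1.06. Members of the list also fell: Cln3, the gene of a lysosomal membrane protein, had 162 reads in Actr3 KO and 776 in control over 3 libraries each, a ratio of 0.234 (exact 95% interval 0.197 to 0.278). Cln3 is named here, after its value was seen, because its promoter alone in this list held the full 10-base motif, shown in capitals on the - strand 5′ to 3′.
Cln3, chr7:126583340-126583369: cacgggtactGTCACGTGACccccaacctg

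The list was drawn up around such sites, so its promoters are described and not tested: 13 of the 22 genes with a matched window held CACGTG (59.1%), against 11.6% of 10545 tested genes with one. In Actr3 KO against control, 5 of 14 autophagy and metabolism genes described as TFEB targets rose and 6 fell, with a median of -0.10. Ppargc1a, the coactivator gene of mitochondrial biogenesis, averaged 445 ± 23.6 normalized counts in Actr3 KO and 100.5 ± 20.1 in control (log2 2.15, limma adjusted p = 2.16e-13). Vps8, a subunit of the CORVET tethering complex of endosomes, rose by 0.80, while Rab7, the GTPase of late endosomes, fell by 0.93 on the log2 scale, or by 0.53 with chromosome medians removed.

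In dKO against Actr3 KO, 65.7% of all genes tested passed, 32.5% higher and 33.2% lower. This comparison and that with the drug share the Actr3 KO libraries with the one above, so opposite signs between them are no independent result. Of the lysosomal targets 4 of 30 rose and 18 fell, with a median log2 difference of -0.34 beside -0.01 over all genes. Gaa averaged 6557 ± 327 normalized counts in dKO and 17317 ± 1238 in Actr3 KO (log2 -1.40, limma adjusted p = 5.7e-14). Ctsf, the gene of cathepsin F, had 0 reads in dKO and 198 in Actr3 KO, at least 69.5-fold lower in dKO when the group total is set at the floor of 3 reads, and the list median was the same with Ctsf at that bound.

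Of the autophagy and metabolism genes, 8 of 14 rose in dKO against Actr3 KO and 3 fell, with a median of 0.29. Ppargc1a averaged 1197 ± 90.7 normalized counts in dKO and 445 ± 23.6 in Actr3 KO (log2 1.43, limma adjusted p = 1.39e-10). Genes of chromosome 5, where Ppargc1a lies, had a median difference of 0.39 in this comparison. Gabarapl1, an autophagosome protein gene of the Atg8 family, rose by 0.80 and Rab7 by 0.67. Of the Ragulator genes 3 of 6 rose and 1 fell, with a median of 0.24. Lamtor1, which anchors the complex in the membrane, rose by 0.50. Lamtor2 rose by 0.38, or by 0.78 with chromosome medians removed, while the 0.53 of Lamtor4 came to 0.11 (limma adjusted p = 0.171) with chromosome medians removed.

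Of the GATOR, KICSTOR and sensor genes, 6 of 17 rose and 5 fell in dKO against Actr3 KO, with a median of -0.01; Sec13 rose by 0.50, and the leucine sensor gene Sesn2 fell by 0.42 on the log2 scale. Of the mTORC1 group, 4 of 15 rose and 6 fell, with a median of -0.10. Rheb averaged 4351 ± 108 normalized counts in dKO and 2411 ± 172 in Actr3 KO (log2 0.85, limma adjusted p = 4.38e-11), a difference of 0.44 with chromosome medians removed. Eif4ebp1 rose by 0.65, and Tsc1, whose product restrains Rheb, fell by 0.53 on the log2 scale. Among genes acting on TFEB or TFE3, 7 of 14 rose and 5 fell, with a median of 0.16. Map4k3, a kinase that phosphorylates TFEB, fell by 0.53 and Xpo1, the nuclear exporter, by 0.39. Gsk3b, another TFEB kinase, was at -0.51, which came to -0.08 (limma adjusted p = 0.184) with chromosome medians removed.

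With ciliobrevin D in Actr3 KO cells, 65.5% of all genes tested passed, 32.7% higher and 32.9% lower. Of the autophagy and metabolism targets, 11 of 14 rose and 0 fell, with a median log2 difference of 0.35 beside -0.02 over all genes. Sqstm1, the autophagy receptor p62, averaged 58712 ± 3438 normalized counts in CB-treated Actr3 KO and 18990 ± 1046 in Actr3 KO (log2 1.63, limma adjusted p = 8.17e-14). Uvrag, which encodes a partner in a lipid kinase complex, rose by 0.68 and Rab7 by 0.65.

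The lysosomal targets were divided with the drug, 10 of 30 rising and 12 falling, with a median of -0.03. Gla, the gene of alpha-galactosidase A, averaged 1560 ± 361 normalized counts in CB-treated Actr3 KO and 362 ± 35.9 in Actr3 KO (log2 2.08, limma adjusted p = 2.96e-12). Atp6v1c1 and Atp6v1d, subunits of the proton pump that acidifies lysosomes, rose by 0.68 and 0.82. Gaa fell by 0.75 on the log2 scale.

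Of the Ragulator genes, 2 of 6 rose with the drug and 1 fell, with a median of 0.03: Lamtor3 rose by 0.39 and Lamtor1 by 0.27, and Slc38a9 averaged 375 ± 25.2 normalized counts in CB-treated Actr3 KO and 585 ± 30.2 in Actr3 KO (log2 -0.64, limma adjusted p = 9.97e-07). In the GATOR, KICSTOR and sensor list 7 of 17 rose and 8 fell, with a median of -0.17. Bmt2 rose by 1.23, and the GATOR2 subunit gene Seh1l rose by 1.03. Sesn2, a stress-induced leucine sensor that inhibits GATOR2, averaged 1439 ± 83.6 in CB-treated Actr3 KO and 740 ± 9.01 in Actr3 KO (log2 0.96, limma adjusted p = 1.7e-11).

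In the mTORC1 group 7 of 15 rose with the drug and 6 fell, with a median of -0.11. Eif4ebp1 and Rheb each rose by 0.80 and Akt1s1, the gene of the mTORC1 inhibitor PRAS40, by 0.75. Genes of chromosome 5, where Rheb lies, had a median difference of 0.22 with the drug. Deptor fell by 0.94 on the log2 scale. Of the genes acting on TFEB or TFE3, 7 of 14 rose and 3 fell, with a median of 0.13, and 4 in all passed after quantile normalization. Ppp3ca, the catalytic subunit of calcineurin, rose by 0.40, or 0.26 after quantile normalization, while Map4k3 fell by 0.50 and Mcoln1 by 0.39 on the log2 scale.

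Against control, the lysosomal list was balanced in dKO, with 10 of 30 higher and 10 lower and a median of 0.05, where 67.1% of all genes passed, 32.0% higher and 35.1% lower. In CB-treated Actr3 KO 22 of 30 were higher than in control and 4 lower, with a median of 0.43, where 65.1% of all genes passed, 33.0% higher and 32.0% lower. The autophagy and metabolism list had 9 of 14 higher and 4 lower in dKO than in control, with a median of 0.25, and 9 higher and 2 lower in CB-treated Actr3 KO, with a median of 0.41. These counts share libraries with those above and add no independent test.

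**Figure D4:**
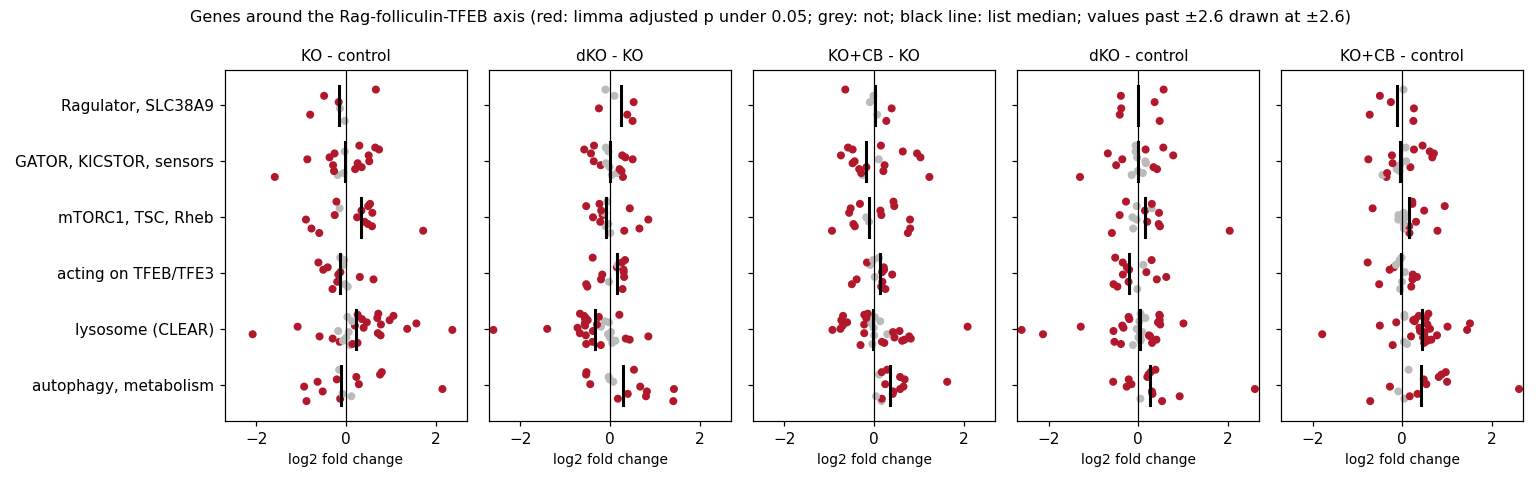
Log2 difference (x axis) of each tested gene in 6 pathway lists, 1 list per row, for the groups named above each panel; red points passed limma's adjusted p under 0.05, grey ones did not, and the black line is the list median. The lysosome row has its median at 0.23 in Actr3 KO over control and at -0.34 in dKO over Actr3 KO; values beyond 2.6 either way, among them Ctsf in dKO and Ppargc1a, are drawn at the edge.

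Mitf and Gpnmb are best known from melanocytes, macrophages and osteoclasts, and 16 genes of those cells were checked. Of these, 12 had at most 16 reads over all 12 libraries, Tyr, Dct and Ocstamp 0. The remaining ones were Csf1r, Pmel, Ptprc and Ctsk. Csf1r, the receptor of macrophage growth factor, was abundant and averaged 1012 ± 183 normalized counts in CB-treated Actr3 KO, 3182 ± 75.9 in dKO, 4318 ± 198 in Actr3 KO and 3202 ± 242 in control. Without it, the list summed to between 81.8 and 121 normalized counts in CB-treated Actr3 KO, 65.1 and 78.5 in dKO, 67.5 and 80.4 in Actr3 KO, and 94.5 and 110 in control. The number of these genes at 0 in every library of a group was 6 in CB-treated Actr3 KO, 6 in dKO, 9 in Actr3 KO and 5 in control. Ptprc and Ctsk were higher in CB-treated cells and control than in dKO and Actr3 KO, as Mitf was, while Csf1r and Pmel had their lowest mean in CB-treated cells and their highest in Actr3 KO. The part of these genes in the Mitf values was not tested. In bulk RNA, fewer cells of a type and less RNA per cell cannot be told apart.

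The 16 kidney epithelial and collecting duct genes summed to between 76620 and 79603 normalized counts in CB-treated Actr3 KO, 80822 and 86427 in dKO, 68668 and 73712 in Actr3 KO, and 116045 and 123452 in control. In Actr3 KO against control 2 of the 15 tested rose and 8 fell, with Krt19 and Krt8, keratins of simple epithelium, at log2 differences of -1.77 and -1.38. Their part in the differences of the 10 genes was not tested.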

How the data were processed

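Per the labels' protocols, poly(A) RNA of pelleted cells was sequenced on a NovaSeq after preparation with a NEBNext Ultra II kit. Per the submitters' processing notes, the tools were DESeq2 2.11.40.7, featureCounts 2.0.1, HISAT2 2.2.1 and fastp 0.23.2, and the builds mm10 and GRCm38; options are not stated in the sources used here. The deposited values behave as a signal made of read counts divided by 1 size factor per library: 100% of values were whole multiples of 1 step (tolerance 0.01 reads), so whole reads were recovered. They are called normalized counts here. Of the Entrez IDs, 25275 were named from RefSeq and 18 from GENCODE, and 1886 have no name. A control column whose name fits no title, and might be from another control line, counts here as an unnumbered control library. Libraries of a group were not duplicates, with chi-square of reads over degrees of freedom between 4.48 and 16.9.

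The 13939 genes that reached 10 in 3 or more libraries were fitted as log2(value + 1) with limma 3.58.1 in R 4.3.3 (trend, 12 libraries in 1 fit, two-sided), in 5 comparisons, with Benjamini-Hochberg adjustment over all genes tested. On recovered reads, edgeR 4.0.16 called 9856 genes in Actr3 KO against control, 9236 in dKO against Actr3 KO and 9143 with ciliobrevin D. Steps were tested on simulated data. Other alternatives were DESeq2 1.42.0, an unfiltered table, a mean filter of 50, pseudocounts of 0.5 and 5, quantile and TMM scaling, fits of 2 groups, a replicate block, each library left out, a minimum of 2-fold, and chromosome medians removed. Exon lengths are from GENCODE vM21, summed over all exons of a gene.

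The 10 genes and the pathway lists were chosen with earlier results of these data known. Named list genes are up to 3 called genes of smallest adjusted p per list in each of the first 3 comparisons; Cln3 and the values of Gaa and Deptor with the drug were picked after their values were seen. Some genes that this rule names are not reported here. Kics2 of the KICSTOR complex was not analysed here.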

Additional observations from a re-analysis of the deposited data

How the results depend on the processing

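The number of genes called was 9136 in CB-treated against untreated Actr3 KO, 9071 in CB-treated Actr3 KO against control, 9724 in Actr3 KO against control, 9164 in dKO against Actr3 KO and 9350 in dKO against control. With a change of at least 2-fold required, genes called numbered 1302 in CB-treated against untreated Actr3 KO, 1470 in CB-treated Actr3 KO against control, 1691 in Actr3 KO against control, 1325 in dKO against Actr3 KO and 1736 in dKO against control. The pathway genes called were then 4 with the drug, 5 in CB-treated Actr3 KO against control, 9 in Actr3 KO against control, 4 in dKO against Actr3 KO and 7 in dKO against control, where 70 to 74 were called without that minimum. With chromosome medians removed, 5 of the 10 genes had groups that did not overlap in Actr3 KO against control, against 8, and after quantile normalization all 10 had. Leaving out single libraries gave 8352 to 9979 called genes over the 5 comparisons. No fold change of a named list gene, or of a member in the fit, changed sign under the alternatives, except those of Rraga in dKO against control and Tfe3 in dKO against Actr3 KO, which were near 0 with overlapping groups. Of the members' fold changes under them, 923 stayed within the spread between replicates and 22 moved by more, 11 of them with chromosome medians removed and 10 after quantile normalization. Replicate numbers did not pair libraries: deviations of same-numbered libraries correlated at -0.04 to 0.06. The fit with the number as a replicate block also left out the unnumbered control library. Its calls numbered 9080 in Actr3 KO against control, 8749 in dKO against control and 8378 in CB-treated Actr3 KO against control. They numbered 9158 in dKO against Actr3 KO and 9118 with ciliobrevin D. Leaving out that control library without a block gave 9094 in Actr3 KO, 8870 in dKO and 8352 in CB-treated Actr3 KO, each against control. In dKO against Actr3 KO, Ptprc missed the threshold with DESeq2 (adjusted p = 0.0923) and with a pseudocount of 5 (limma adjusted p = 0.0516). The cause of these moves was not tested. Depth limits Gpnmb and Mitf, with 5 to 32 and 73 to 153 reads per group.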
